A study of Mus musculus with 10 samples.

Results

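SYC cytosines are the target bases that the cytidine deaminase AID is known to avoid, where S stands for C or G, Y stands for C or T, and the last C is the target. They were picked here by sequence alone in a fragment of the mouse immunoglobulin switch mu region (Smu). The rule uses no measured substitution, but it was chosen with earlier results of these data known. Of the 243 C:G positions used, 63 were SYC, 18 of them a C of the reference strand and 45 a G, which was read on the complementary strand. They comprised 25 CTC, 9 GTC, 13 CCC and 16 GCC trinucleotides. The deposited tables list 560 positions, of which 554 were used, and 1 further SYC position was among the 6 left out (5 where the reference base differed between genotypes and 1 with low coverage). The sources used here name no genome build and no coordinates, so G371, for example, stands for a reference-strand G at row position 371 of the tables. For comparison, 65 cytosines lay in WYC, 40 in SRC and 74 in WRC, the AID hotspot, where W is A or T and R is A or G.

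The libraries came from spleen B cells of UNG-/- mice (4 libraries), UNG+/+ mice (4 libraries) and AID-/- mice (2 libraries, the negative control). Cells of all 3 genotypes had been stained with 5 µM of the division dye CFSE and kept for 4 days with 25 µg/ml LPS, 10 ng/ml IL4 and 20 ng/ml BAFF, a stimulus under which B cells divide and express AID. Those that had diluted the dye through at least 5 divisions were sorted, and the Smu fragment was amplified from their genomic DNA by 25 cycles of PCR. Strain, age and the construction of the null alleles are not stated in the labels.

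AID converts cytosine to uracil in the single-stranded DNA that transcription exposes, and Smu, the repetitive intron upstream of the Ighm constant exons, is among its main targets. Uracil-DNA glycosylase (UNG) cuts the uracil out, and the abasic site that remains can be copied with any base. A uracil that stays in place is copied as thymine, which appears as a C:G to T:A transition, whereas C:G to G:C and C:G to A:T transversions are the usual trace of a copied abasic site.

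The stretches below hold SYC targets around which the results turn, 7 bases on each side of the target on the strand that carries it, with the SYC trinucleotide in capitals. The first 6 CTC targets have the highest transition frequency in UNG-/- cells, G236 adjoins G238, G438 is the lowest CTC, and each of the other contexts is shown by its highest member in those cells. The bases are those of the deposited reference columns.
G371 (CTC): gctttCTCtgtctgg
C481 (CTC): ggcttCTCtgagtgc
C520 (CTC): gattaCTCtgaggta
G238 (CTC): ctgtcCTCtcacact
G305 (CTC): caggtCTCtattctt
C140 (CTC): tacaaCTCaatgtgg
G236 (CTC): gtcctCTCacactca
G438 (CTC): agagcCTCgcttact
G307 (GTC): tgcagGTCtctattc
G469 (CCC): gcccaCCCatctcag
C352 (GCC): ctccaGCCacagtaa
All of the 5 highest have a T after the target C, and G438 has a G. G236 and G238 share most of their stretch, as do G305 and G307, so their reads come partly from the same molecules and they are not independent sites. The same holds for other neighbours, such as C481 and G483 or C520 and G522, as fragments were 100 to 300 bp long. Counts of positions called, and correlations across positions, therefore do not rest on independent sites.

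Coverage was deep throughout. Median coverage over the SYC positions was 129448 to 319194 quality-filtered reads in UNG-/- libraries, 141457 to 358719 in UNG+/+ libraries and 217497 to 310701 in AID-/- libraries, and the lowest coverage of any SYC position was 2960 reads. A library held 916 to 4697 reads with a transition at an SYC position. Frequencies are given as substituted reads per 10000 filtered reads. Reads are PCR copies without molecular identifiers, so an interval on 1 library reflects counting alone, and differences were judged against the spread among libraries. Because no label says that each library is a separate animal, the p-values reflect only how far these libraries vary, and that variation may be technical. The UNG libraries numbered 1 and 2 had 97.9 to 98.3% of bases passing the quality filter and those numbered 3 and 4 had 98.7 to 99%, so main results are also given within these pairs of numbers. UNG-/- replicates 1, 2 and 4 carried a second base in up to 48.2% of reads at polymorphic positions, against at most 0.283% in UNG-/- replicate 3 and the UNG+/+ libraries, so results are also given with replicate 3 as the only UNG-/- library.

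SYC cytosines carried more transitions in UNG-/- cells than in UNG+/+ cells, and slightly more in UNG+/+ cells than in AID-/- cells. Over the 63 positions the mean transition frequency was 2.55, 2.79, 2.44 and 1.87 per 10000 in UNG-/- replicates 1 to 4. It was 0.968, 0.974, 1.07 and 1.14 in the UNG+/+ libraries and 0.771 and 0.733 in the AID-/- libraries. The 3 genotypes did not overlap. The means were 2.41 ± 0.387 in UNG-/- and 1.04 ± 0.0837 in UNG+/+ libraries (mean ± SD, n = 4 each), against 0.752 in AID-/- cells, so UNG-/- stood at 2.32 times UNG+/+ (a log2 difference of 1.20 ± 0.136, SE). For replicates 1 and 2 the ratio came to 2.75, and for replicates 3 and 4 to 1.95. With the AID-/- mean subtracted, an excess of 1.66 was left in UNG-/- and 0.287 in UNG+/+ libraries. The subtraction assumes that all libraries share the AID-/- error level, which was not tested for transitions. The small UNG+/+ excess depends most on it.

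Mean transversion frequencies at the same cytosines did not exceed the AID-/- level. C:G to G:C averaged 0.309 ± 0.0504 per 10000 in UNG-/- and 0.313 ± 0.0351 in UNG+/+ libraries (mean ± SD, n = 4 each), against 0.419 and 0.367 in the AID-/- libraries, and the UNG genotypes overlapped, all of their libraries lying below both AID-/- libraries. C:G to A:T averaged 1.77 ± 0.334 in UNG-/- and 2.55 ± 1.14 in UNG+/+ libraries (mean ± SD, n = 4 each), against 2.55 and 2.81 in the AID-/- libraries. By library it was 1.51, 1.55, 2.23 and 1.80 in UNG-/- replicates 1 to 4 and 1.44, 2.11, 4.13 and 2.51 in UNG+/+ replicates 1 to 4, so replicate 3 was the highest and replicate 1 the lowest in both genotypes. UNG+/+ replicate 3 alone had 4.13 C:G to A:T reads per 10000 and sets that wide SD. Without it the UNG+/+ mean was 2.02.

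**Figure D1:**
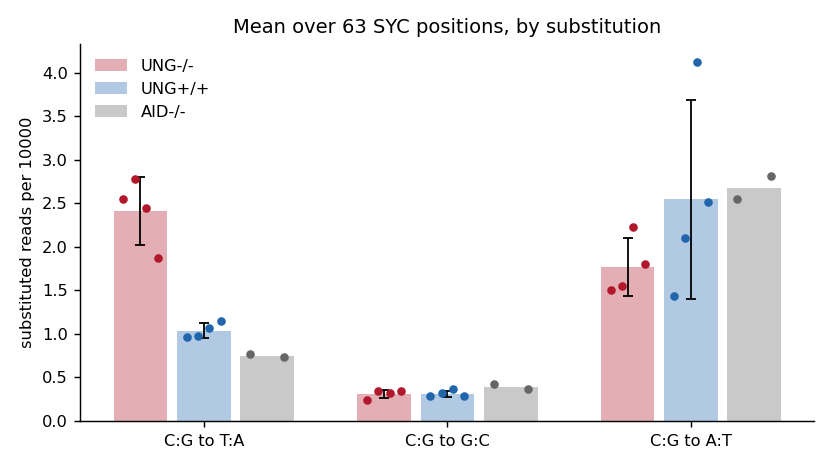
Substituted reads per 10000 filtered reads, averaged over the 63 SYC positions, for the 3 substitutions of a C:G pair. Bars are means, points are libraries (UNG-/- 4, UNG+/+ 4, AID-/- 2) and error bars are SD where n = 4. For C:G to T:A the UNG-/- libraries sit at 1.87 to 2.79, above all UNG+/+ libraries at 0.968 to 1.14, while for both transversions the UNG genotypes overlap.

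Position by position, 47.5% of the tested SYC cytosines passed the test. The edgeR quasi-likelihood test, with coverage as offset and Benjamini-Hochberg adjustment over all C:G positions, could test 59 of the 63 for transitions. The other 4 (G537, G538, G543 and C547), named after their values were seen, had too few substituted reads. Of the 59, 28 were higher in UNG-/- than in UNG+/+ cells at an adjusted p of 0.05 and 0 were lower, whereas TMM scaling of the substituted reads turned this to 2 higher and 25 lower. Over all 236 C:G positions tested, 84.3% were higher and 0.424% lower, and under TMM scaling 33 were higher and 38 lower. The median log2 fold change was 0.71 over SYC and 1.47 over all C:G positions. TMM scaling moved the second of these medians to -0.05 and the SYC median to -0.85, so the SYC median lay below that of all C:G positions under either scaling. The AID-/- level is not subtracted in these fits. With it subtracted, the mean UNG-/- excess was 5.79 times the UNG+/+ excess over SYC and 3.68 times over all C:G positions. The SYC ratio rests on a UNG+/+ excess of only 0.287. No SYC position was lower at an unadjusted p under 0.05 either, and DESeq2 called 26 higher and 0 lower. Over all 236 C:G positions DESeq2 called 195 higher and 1 lower. The edgeR calls numbered 32 of 58 tested within replicate numbers 1 and 2, and 23 of 58 within 3 and 4. Over all C:G positions these fits called 202 of 233 and 185 of 235 higher. With replicate 3 as the only UNG-/- library, the median log2 fold change was 0.86 over SYC and 1.41 over all C:G positions. In that last fit the spread comes from the other 2 genotypes alone, and the lone library is assumed to vary as they do.

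Counted by separation instead of by a test, every UNG-/- library exceeded every UNG+/+ library at 26 of the 63 SYC positions, against 75.7% of the 243 C:G positions. Every UNG-/- library exceeded both AID-/- libraries at 38, against 88.5%. Every UNG+/+ library exceeded both at 11 of the 63, against 65.8%. In the other direction, every UNG+/+ library lay below both AID-/- libraries at 2 SYC positions, both CCC. Every UNG-/- library lay below both at 1, a GTC. Over all 243 C:G positions these counts were also 2 and 1. The group means alone were higher in UNG-/- than in UNG+/+ cells at 61 of the 63.

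Among the 4 contexts, CTC stood apart by level. Transitions at the 25 CTC positions averaged 4.62, 5.09, 4.13 and 3.22 per 10000 in UNG-/- replicates 1 to 4. They averaged 1.43, 1.40, 1.38 and 1.66 in the UNG+/+ libraries, and 0.905 and 0.824 in the AID-/- libraries. The UNG-/- libraries were all above the UNG+/+ libraries, which were all above the AID-/- libraries, with a UNG-/- over UNG+/+ log2 difference of 1.53 ± 0.155 (SE). The 38 positions in the other 3 contexts averaged 1.19 ± 0.149 in UNG-/- and 0.758 ± 0.0924 in UNG+/+ libraries (mean ± SD, n = 4 each), against 0.682 and 0.672 in the AID-/- libraries. There the UNG-/- libraries (0.988 to 1.33) again lay above the UNG+/+ libraries (0.666 to 0.863), but the UNG+/+ and AID-/- libraries overlapped.

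The other 3 contexts lay closer to each other than to CTC. GTC averaged 1.44 ± 0.254 in UNG-/- libraries, 0.840 ± 0.0467 in UNG+/+ libraries and 0.733 in AID-/- libraries. CCC averaged 1.01 ± 0.0699 in UNG-/- libraries, 0.585 ± 0.128 in UNG+/+ libraries and 0.626 in AID-/- libraries, so its UNG+/+ mean was below the AID-/- mean. GCC averaged 1.20 ± 0.215 in UNG-/- libraries, 0.853 ± 0.125 in UNG+/+ libraries and 0.688 in AID-/- libraries, and it was the context in which UNG-/- and UNG+/+ libraries overlapped (0.964 to 1.49 and 0.705 to 1.00). In UNG-/- libraries the order below CTC was GTC, GCC and CCC by mean, with overlapping libraries between each pair of neighbours. GTC was above CCC in 4 of 4 UNG-/- libraries, and in UNG+/+ cells their libraries did not overlap (0.792 to 0.884 at GTC and 0.466 to 0.730 at CCC). The excess over AID-/- in UNG-/- cells was 0.710 at GTC and 0.382 at CCC. CTC was above each of them in 4 of 4 UNG-/- libraries, by 2.74 to 4.84 times, and in 4 of 4 UNG+/+ libraries, by 1.38 to 3.06 times. It was also above each of them in both AID-/- libraries, by 1.11 to 1.42 times.

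**Figure D2:**
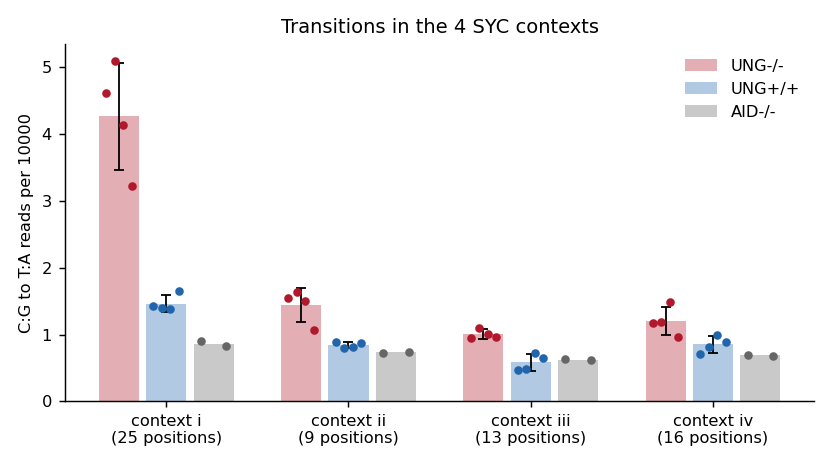
C:G to T:A reads per 10000 in the 4 SYC contexts, with context i CTC, ii GTC, iii CCC and iv GCC. Bars are means over positions and libraries, points are libraries and error bars are SD where n = 4. Context i reaches 4.27 in UNG-/- cells, against 1.46 in UNG+/+ and 0.864 in AID-/- cells, and contexts ii to iv stay between 1.01 and 1.44 in UNG-/- cells.

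CTC held 39.7% of the SYC positions and 81.2% of their summed transition excess in UNG-/- cells, with 83.0% in UNG+/+ cells. The 16 SYC positions with the highest frequency in UNG-/- cells were all CTC, and the first of another context was G307, a GTC. In UNG+/+ cells, 13 of the highest 16 were CTC. Of the tested positions, 19 of 24 CTC, 5 of 9 GTC, 3 of 12 CCC and 1 of 14 GCC were higher in UNG-/- than in UNG+/+ cells (edgeR, adjusted p of 0.05), with median log2 fold changes of 1.39, 0.71, 0.51 and 0.47. Against the 84.3% and the median of 1.47 over all C:G positions, CTC was near the background of calls, and the other 3 contexts were below it. The AID-/- level is not subtracted in these folds. Under TMM scaling the CTC calls were 2 higher and 3 lower, and the other contexts had 0 higher and 22 lower, against 33 higher and 38 lower of all 236. In that setting the fit removes the shift shared by most C:G positions.

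**Figure D3:**
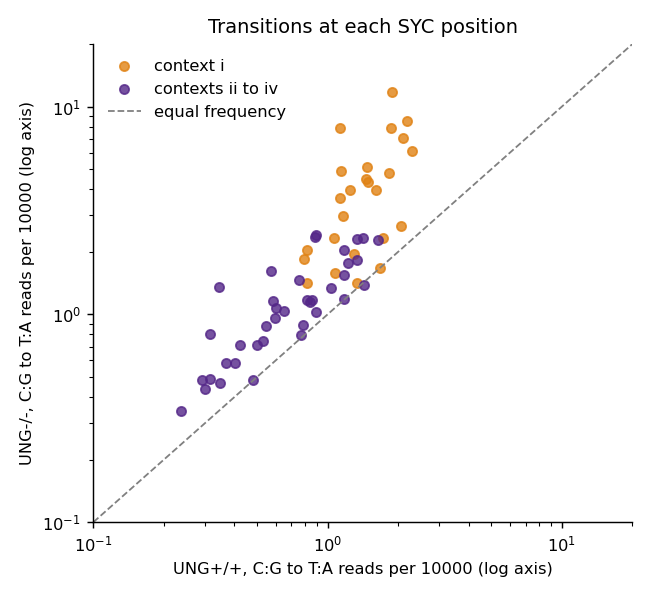
Mean C:G to T:A reads per 10000 at each of the 63 SYC positions, UNG-/- (4 libraries) on the y axis and UNG+/+ (4 libraries) on the x axis, both axes logarithmic. Context i is CTC, and contexts ii to iv are GTC, CCC and GCC. Nearly all points (61 of 63) lie above the line of equal frequency, and the 16 highest on the y axis all belong to context i.

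G371, a CTC 7 bp from the nearest WRC cytosine, had the highest frequency and the largest fitted change. It carried 18.5, 15.3, 5.77 and 7.18 transitions per 10000 in UNG-/- replicates 1 to 4, 2.54, 0.719, 1.35 and 2.89 in the UNG+/+ libraries, and 0.441 and 0.249 in the AID-/- libraries. Its genotypes did not overlap, and UNG-/- replicates 1 and 2 were well above 3 and 4. The log2 fold change between UNG-/- and UNG+/+ was 2.63 ± 0.308 (SE, edgeR adjusted p = 3.11e-16). It ran from 1.58 to 3.48 over the alternatives without TMM scaling, was 1.01 with it, and passed the test in each of the 20 alternatives. G371 was also higher in UNG+/+ than in AID-/- cells (log2 fold change 2.46, edgeR adjusted p = 8.59e-07).

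C481 and C520 came next by frequency in UNG-/- cells. C481 had 9.30, 10.1, 9.55 and 5.30 per 10000 in UNG-/- libraries, 1.82, 2.37, 1.31 and 3.21 in UNG+/+ libraries and 0.732 and 0.329 in AID-/- libraries, a log2 fold change of 1.93 between UNG-/- and UNG+/+ (edgeR adjusted p = 2.21e-09). C520 had 9.81, 9.73, 7.55 and 4.53 in UNG-/- libraries, 0.520, 0.542, 1.40 and 2.06 in UNG+/+ libraries and 0.510 and 0.816 in AID-/- libraries, a log2 fold change of 2.55 ± 0.366 (SE). At both, every UNG-/- library was above every UNG+/+ library. C481 was higher in UNG+/+ than in AID-/- cells as well (log2 fold change 2.10, edgeR adjusted p = 4.76e-05), whereas C520 had overlapping UNG+/+ and AID-/- libraries.

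G238 and G236 lie next to each other in the same run of pyrimidines. G238 had 10.1, 9.87, 8.0 and 3.64 per 10000 in UNG-/- libraries, 1.79, 1.71, 2.33 and 1.61 in UNG+/+ libraries and 0.655 and 0.490 in AID-/- libraries. G236 had 5.35, 6.10, 4.78 and 3.33 in UNG-/- libraries, 1.32, 0.442, 1.32 and 1.5 in UNG+/+ libraries and 0.884 and 0.719 in AID-/- libraries. Neither had overlap between the UNG genotypes, both had a log2 fold change of 2.08 between them, and the lowest UNG-/- library was replicate 4 at each. Replicate 4 was also the lowest UNG-/- library in the mean over all SYC positions.

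G305 was the most even of the leading CTC positions in UNG+/+ cells. Its frequencies were 6.77, 7.34, 9.35 and 4.84 per 10000 in UNG-/- libraries, 2.15, 2.02, 2.08 and 2.16 in UNG+/+ libraries and 1.00 and 1.12 in AID-/- libraries (log2 fold change between UNG-/- and UNG+/+ 1.75, edgeR adjusted p = 9.79e-09). C140 was the most uneven, with 6.83, 9.39, 4.51 and 3.83 in UNG-/- libraries, 1.55, 4.40, 1.02 and 2.22 in UNG+/+ libraries and 1.06 and 0.928 in AID-/- libraries. Its UNG genotypes overlapped, since UNG+/+ replicate 2 exceeded the lowest UNG-/- library, and the log2 fold change was 1.41 (edgeR adjusted p = 3.91e-07). G424 was low in AID-/- cells, with 4.48, 7.34, 3.55 and 3.79 in UNG-/- libraries, 1.54, 2.08, 1.61 and 2.06 in UNG+/+ libraries and 0.375 and 0.372 in AID-/- libraries, and it was higher in UNG+/+ than in AID-/- cells too (log2 fold change 2.28, edgeR adjusted p = 4.27e-06). Under TMM scaling C140 and G424 no longer passed between the UNG genotypes, with log2 values of -0.08 and -0.16, and G371 and C520 were the 2 SYC positions still called higher.

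The remaining CTC positions of the 10 largest changes were G294, C345, G464 and G230. Their UNG-/- means were 5.12 ± 0.808, 3.95 ± 0.967, 3.63 ± 0.251 and 4.48 ± 0.484 per 10000 (SD, n = 4 each), and their UNG+/+ means were 1.47 ± 0.581, 1.24 ± 0.435, 1.13 ± 0.681 and 1.46 ± 0.380. Log2 fold changes ran from 1.62 to 1.82. In all 4 the UNG genotypes were apart, and G230, 14 bp from the nearest WRC cytosine, was the farthest of any SYC position from a hotspot.

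Of the CTC positions, 5 were tested and did not pass between UNG-/- and UNG+/+: G398, G459, G483, G508 and G522, named after their values were seen. Their log2 fold changes were 0.44, 0.60, 0.10, 0.38 and 0.01, in that order. The lowest CTC in UNG-/- cells was G438, with 1.61, 0.700, 1.71 and 1.62 per 10000 in UNG-/- libraries, 0.472, 1.30, 0.767 and 0.729 in UNG+/+ libraries and 0.898 and 1.16 in AID-/- libraries. Its UNG genotypes overlapped. It passed between them (log2 fold change 0.78, edgeR adjusted p = 0.0263, over alternatives without TMM scaling up to 0.588), but UNG-/- replicate 2 lay below both AID-/- libraries.

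Outside CTC, G307 (GTC), G469 (CCC) and C352 (GCC) were the highest of their contexts in UNG-/- cells. G307 had 2.62, 2.59, 2.18 and 2.22 per 10000 in UNG-/- libraries, 1.24, 0.961, 0.871 and 0.490 in UNG+/+ libraries and 0.565 and 0.519 in AID-/- libraries, without overlap between the UNG genotypes (log2 fold change 1.46, edgeR adjusted p = 8.41e-06). G469 had 1.85, 2.64, 3.34 and 1.59 in UNG-/- libraries, 0.894, 0.494, 0.949 and 1.19 in UNG+/+ libraries and 0.801 and 0.745 in AID-/- libraries, also without overlap (log2 fold change 1.40, edgeR adjusted p = 5.4e-05). C352 had 1.79, 2.63, 2.23 and 2.62 in UNG-/- libraries, 1.79, 1.71, 0.713 and 1.10 in UNG+/+ libraries and 1.64 and 1.09 in AID-/- libraries. At C352 the UNG-/- level passed against UNG+/+ (log2 fold change 0.83, edgeR adjusted p = 0.0133) but not against AID-/- (0.77, adjusted p = 0.0609), and it lies 1 bp from a WRC cytosine. The first of these was lost with TMM scaling, within replicate numbers 1 and 2, with replicate 3 as the only UNG-/- library and without UNG+/+ replicate 3. Under TMM scaling the log2 values of G307, G469 and C352 were -0.13, -0.03 and -0.70.

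The lowest members of these contexts averaged under 1 transition per 10000 in each genotype. G381 (GTC) averaged 0.796 ± 0.412 in UNG-/- libraries, 0.771 ± 0.227 in UNG+/+ libraries and 0.420 in AID-/- libraries. G245 (CCC) averaged 0.342 ± 0.26 in UNG-/- libraries, 0.237 ± 0.0366 in UNG+/+ libraries and 0.272 in AID-/- libraries, and G320 (GCC) averaged 0.439 ± 0.102 in UNG-/- libraries, 0.300 ± 0.114 in UNG+/+ libraries and 0.354 in AID-/- libraries. None of the 3 passed between the UNG genotypes (edgeR adjusted p = 0.944, 0.231 and 0.297). G245 rested on 3 substituted reads in UNG-/- replicate 4, where the 95% Wilson interval ran from 0.0388 to 0.335 per 10000.

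**Figure D4:**
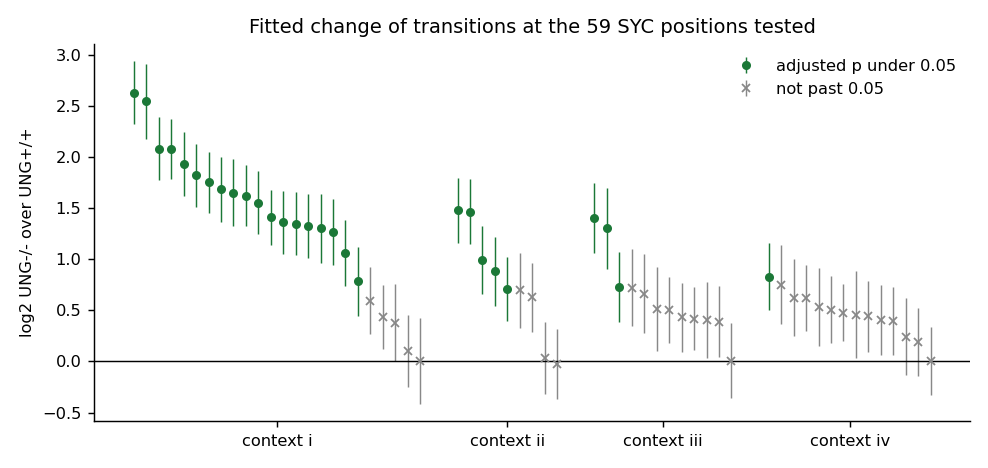
Fitted log2 fold change of transitions, UNG-/- over UNG+/+, at the 59 SYC positions tested, with coverage as offset. Error bars are the standard error of the fit, and within each context (i CTC, ii GTC, iii CCC, iv GCC) positions run from the largest to the smallest value. Filled points passed an adjusted p of 0.05, which 19 of 24 in context i and 9 of 35 in the others did with this offset, against 2 and 0 with TMM scaling.

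Against the AID-/- control, 32 of the 59 SYC positions were higher in UNG-/- cells, against 87.3% of the 236 C:G positions, and 10 were higher in UNG+/+ cells, against 64.8%. Both comparisons use the same 2 AID-/- libraries. Over all 236 C:G positions, TMM scaling gave 86 higher and 77 lower in UNG-/- cells, and 81 higher and 66 lower in UNG+/+ cells. At the SYC positions it gave 1 higher and 44 lower, and 0 higher and 40 lower. None was lower with coverage as offset (edgeR, also 0 at an unadjusted p under 0.05, and 0 with DESeq2). The 10 in UNG+/+ cells were 9 CTC and G410, a CCC. G410 had 0.442, 0.203, 0.455 and 0.367 per 10000 in UNG+/+ libraries, against 0.132 and 0.127 in AID-/- libraries (log2 fold change 1.45, edgeR adjusted p = 0.0247). This call at a low level was lost with TMM scaling, with DESeq2, without UNG+/+ replicate 3 and without either AID-/- library. The 32 in UNG-/- cells were 19 of 24 CTC and 13 of 35 positions of the other contexts. Without AID-/- replicate 2 the UNG+/+ count fell to 5.

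C:G to G:C transversions were called at few SYC cytosines. Of 38 with enough reads, 2 were higher in UNG-/- than in UNG+/+ cells (G47 and G241) and 1 was lower (C481), against 1.05% higher and 28.3% lower of 191 C:G positions tested (edgeR). C481 had 0.613, 0.475, 0.523 and 0.833 C:G to G:C reads per 10000 in UNG-/- libraries, 3.03, 1.75, 1.56 and 0.871 in UNG+/+ libraries and 0.513 and 0.603 in AID-/- libraries. The UNG-/- libraries lay within 0.475 to 0.833, close to the AID-/- libraries, and below every UNG+/+ library. Its log2 fold change between UNG-/- and UNG+/+ was -1.47 ± 0.434 (SE, edgeR adjusted p = 0.0112), and it was the SYC position that passed between UNG+/+ and AID-/- cells (log2 fold change 1.60, edgeR adjusted p = 0.0323, against 23.6% of 191). The first of these calls was lost with TMM scaling, within replicate numbers 3 and 4 and with replicate 3 as the only UNG-/- library. The second was lost in the fit on only the groups compared, within replicate numbers 3 and 4, without UNG+/+ replicate 1 and without either AID-/- library.

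G47 and G241 went the other way at a lower level. G47 had 0.178, 0.169, 0.374 and 0.780 C:G to G:C reads per 10000 in UNG-/- libraries, 0.0589, 0.196, 0.186 and 0.103 in UNG+/+ libraries and 0.368 and 0.325 in AID-/- libraries. G241 averaged 0.420 ± 0.142 in UNG-/- and 0.185 ± 0.0485 in UNG+/+ libraries (mean ± SD, n = 4 each), against 0.435 in AID-/- cells. At both, the UNG-/- mean was near the AID-/- mean, the UNG genotypes overlapped, and the adjusted p (0.0435 and 0.0392, edgeR) was lost with DESeq2, with limma and with the fit on only the groups compared. Between UNG-/- and AID-/- cells 0 of 38 were called by edgeR (2 lower at an unadjusted p under 0.05) and 0 by DESeq2, against 0.524% of 191 lower.

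By context, the mean C:G to G:C frequency of CTC was the lower in UNG-/- cells, unlike that of the other contexts. At CTC it was 0.351 ± 0.0316 in UNG-/- and 0.491 ± 0.0319 in UNG+/+ libraries (mean ± SD, n = 4 each), against 0.411 and 0.418 in the AID-/- libraries. The UNG-/- libraries (0.309 to 0.385) lay below both AID-/- libraries and the UNG+/+ libraries (0.444 to 0.516) above both. The UNG+/+ level rested on some of the CTC positions. The 8 followed by T averaged 0.424 in UNG-/- libraries, 0.949 in UNG+/+ libraries and 0.442 in AID-/- libraries, whereas the 14 followed by A averaged 0.299 in UNG-/- libraries, 0.268 in UNG+/+ libraries and 0.397 in AID-/- libraries. By strand, the 7 CTC on the reference strand's C averaged 0.416 in UNG-/- libraries, 0.839 in UNG+/+ libraries and 0.521 in AID-/- libraries, and the 18 on G averaged 0.325 in UNG-/- libraries, 0.355 in UNG+/+ libraries and 0.373 in AID-/- libraries. In the other 3 contexts together it was 0.282 ± 0.0660 in UNG-/- and 0.195 ± 0.0521 in UNG+/+ libraries (mean ± SD, n = 4 each), against 0.425 and 0.334 in the AID-/- libraries, and the UNG genotypes overlapped there. At single positions the UNG-/- mean was above the UNG+/+ mean at 11 of 25 CTC, 8 of 9 GTC, 13 of 13 CCC and 12 of 16 GCC positions.

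C:G to A:T transversions were lower in UNG-/- than in UNG+/+ cells at 5 of 59 SYC positions tested (G508, G238, G459, G473 and G410) and higher at 0, against 20.3% of 231 C:G positions lower (edgeR). At an unadjusted p under 0.05, 14 were lower and 0 higher, and DESeq2 called 1 lower. Of these 5, G473 had 0.674, 0.799, 0.567 and 0.282 C:G to A:T reads per 10000 in UNG-/- libraries, 0.959, 1.16, 1.79 and 0.840 in UNG+/+ libraries and 1.03 and 0.765 in AID-/- libraries, and it was the only one of the 5 without overlap between the UNG genotypes. At the other 4, UNG+/+ replicate 3 was the highest library, with 7.04 at G508, 7.0 at G238, 7.2 at G410 and 5.38 at G459, against at most 3.35 in the other UNG+/+ libraries. Without UNG+/+ replicate 3 or UNG-/- replicate 1 the count was 0, and without UNG+/+ replicate 1 it was 22. Over all C:G positions, 38 of 230, 24 of 231 and 94 of 231 were lower in those fits, in that order. Against AID-/- cells, 0 of 59 passed in UNG-/- (11 lower at an unadjusted p under 0.05, 0 by DESeq2) and 0 of 59 in UNG+/+ cells (1 lower at an unadjusted p under 0.05, 0 by DESeq2, against 4.33% higher of 231). Within replicate numbers 1 and 2 those counts were 30 and 10 of 59, all lower. Over the 228 C:G positions tested there, 106 were lower and 1 higher in UNG-/- cells, and 28 lower and 20 higher in UNG+/+ cells. Within replicate numbers 3 and 4 both SYC counts were 0.

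Distance to the nearest WRC cytosine on either strand ran from 1 to 14 bp, with a median of 3. The 27 SYC positions at 1 to 2 bp averaged 1.95 ± 0.314 transitions per 10000 in UNG-/- libraries, 1.00 ± 0.139 in UNG+/+ libraries (SD, n = 4 each) and 0.814 in AID-/- libraries. The 36 at 3 bp or more averaged 2.76 ± 0.461 in UNG-/- libraries, 1.07 ± 0.109 in UNG+/+ libraries (SD, n = 4 each) and 0.704 in AID-/- libraries. The nearer positions thus had the lower mean in UNG-/- cells, but they include C520 and C140, both 2 bp from a WRC cytosine and among the 6 highest SYC positions. Context and distance go together, since 12 of the 16 GCC but only 1 of the 25 CTC positions lay 1 bp from a WRC cytosine, and their parts cannot be told apart over all contexts.

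Within CTC, the 8 positions at 1 to 2 bp averaged 3.61 ± 0.720 in UNG-/- and 1.34 ± 0.268 in UNG+/+ libraries, and the 17 at 3 bp or more averaged 4.57 ± 0.844 in UNG-/- and 1.52 ± 0.188 in UNG+/+ libraries (mean ± SD, n = 4 each). The 6 CTC at 7 bp or more averaged 8.42, 8.23, 6.31 and 4.47 in UNG-/- libraries, 1.84, 1.35, 1.75 and 1.66 in UNG+/+ libraries and 0.730 and 0.682 in AID-/- libraries. In each UNG-/- library this was above the value of the CTC at 1 to 2 bp (3.87, 4.31, 3.65 and 2.61). Of these farther CTC, G371, G238 and G305 are followed by T and G236 by A. The base after the target went with the CTC level too, as given below, and its part was not separated from that of distance. The other 3 contexts showed no such order, with 1.25 ± 0.190 at 1 to 2 bp and 1.14 ± 0.128 at 3 bp or more in UNG-/- cells (SD, n = 4 each). Across positions, the Spearman correlation of UNG-/- frequency with distance was 0.501 over the 25 CTC and -0.0399 over the 38 others, given as a description of positions that share the same libraries.

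**Figure D5:**
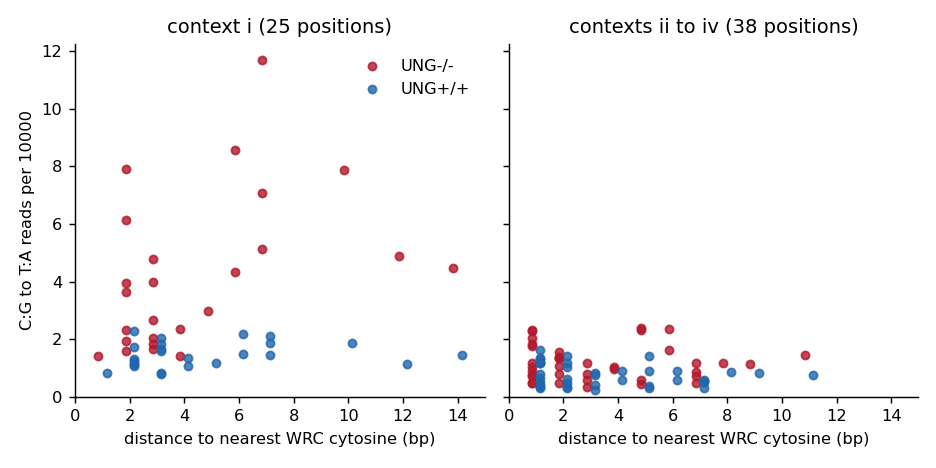
Mean C:G to T:A reads per 10000 at each SYC position (UNG-/- drawn slightly left, UNG+/+ slightly right, 4 libraries each) against its distance in bp to the nearest WRC cytosine on either strand. Context i is CTC, and contexts ii to iv are GTC, CCC and GCC. The CTC positions at 7 bp or more average 6.86 in UNG-/- cells, against 1.65 in UNG+/+ cells, and no position of the other contexts exceeds 2.40.

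By strand, SYC cytosines on the reference strand's C averaged 2.79 ± 0.515 in UNG-/- libraries, 1.19 ± 0.116 in UNG+/+ libraries and 0.913 in AID-/- libraries, and those read on the complementary strand averaged 2.26 ± 0.337 in UNG-/- libraries, 0.978 ± 0.0959 in UNG+/+ libraries and 0.687 in AID-/- libraries. The share of CTC was similar on both (7 of 18 and 18 of 45). Within CTC the C strand had 5.53, 6.38, 4.76 and 3.37 in UNG-/- libraries and the complementary strand 4.27, 4.59, 3.89 and 3.16, so C was the higher in 4 of 4 UNG-/- libraries. In UNG+/+ cells the means were 1.46 ± 0.319 on C and 1.47 ± 0.166 on G (SD, n = 4 each).

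The base after the target also went with the level in CTC, and its part was not separated from that of distance to a WRC cytosine. The 8 CTC followed by T had 8.19, 8.25, 6.25 and 4.16 transitions per 10000 in UNG-/- libraries, 1.63, 1.47, 1.46 and 1.94 in UNG+/+ libraries and 0.666 and 0.523 in AID-/- libraries. The 14 CTC followed by A had 3.12, 3.74, 3.35 and 3.00 in UNG-/- libraries, 1.43, 1.41, 1.42 and 1.61 in UNG+/+ libraries and 1.10 and 1.01 in AID-/- libraries. T exceeded A in 4 of 4 UNG-/- and 4 of 4 UNG+/+ libraries, whereas A exceeded T in both AID-/- libraries. In the other 3 contexts A was above T in all 3 genotypes. The 14 positions followed by A had 1.55 ± 0.221 in UNG-/- libraries (SD, n = 4), 1.01 in UNG+/+ and 0.987 in AID-/- cells, and the 12 followed by T had 0.856 ± 0.138 in UNG-/- libraries (SD, n = 4), 0.496 in UNG+/+ and 0.362 in AID-/- cells. Their UNG-/- excess over AID-/- was close, at 0.561 for A and 0.494 for T, whereas in CTC it was 2.25 for A and 6.12 for T.

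Set beside the other classes of cytosine, SYC had the lowest transition excess. In UNG-/- cells the excess over AID-/- was 5.06 per 10000 at WYC, 10.6 at SRC and 72.0 at WRC, or 3.04, 6.38 and 43.4 times the 1.66 of SYC, and each was above SYC in 4 of 4 libraries. In UNG+/+ cells these were 4.59, 7.76 and 70.1 times, again in 4 of 4 libraries, over an SYC excess of only 0.287. By the edgeR test between UNG-/- and UNG+/+, 61 of 64 WYC, 38 of 40 SRC and 72 of 73 WRC positions were higher. SYC and WYC share the pyrimidine before the target and differ in the base before that. Within this pair CTC was above TTC, with 4.27 ± 0.801 against 3.50 ± 0.901 in UNG-/-, 1.46 ± 0.129 against 1.03 ± 0.0415 in UNG+/+ and 0.864 against 0.328 in AID-/- cells. This held in 4 of 4 UNG-/- libraries, by 1.13 to 1.41 times, and in 4 of 4 UNG+/+ libraries, by 1.32 to 1.67 times. It also held in both AID-/- libraries, by 2.39 to 2.91 times. After subtraction of the AID-/- level the CTC excess was 3.40 against 3.17 for TTC in UNG-/- cells and 0.600 against 0.700 in UNG+/+ cells. ATC (8.72), ACC (7.28) and TCC (5.11) were above CTC in 4 of 4 UNG-/- libraries, and also in 4 of 4 UNG+/+ libraries.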

How the data were processed

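Genomic DNA of sorted B cells was amplified over Smu, sheared to 100 to 300 bp, and made into libraries with 10 further PCR cycles, per the labels' protocols. Of software, the submitters' processing notes list CASAVA (version 1.7), Novoalign (version 2.07.04) and SAMtools (version 0.1.11), with no genome build given in the sources used here. The deposited tables hold, per the file headers, a count of reads at every position, of reads above a Phred quality of 20, and of each substitution. Dividing those counts by the filtered reads gave back the deposited fraction. Polymerase and sequencing errors enter each count. The AID-/- libraries give a level without AID, but other libraries can lie below it. Mean C:G to A:T frequency over SYC was 1.51 to 2.23 in UNG-/- libraries, against 2.55 and 2.81 in AID-/- libraries. In UNG+/+ libraries it ran from 1.44 to 4.13. Mean C:G to G:C frequency over SYC was below both AID-/- libraries in every UNG-/- and UNG+/+ library. Whether the error level of transitions differs between libraries was not tested. Positions with under 1000 filtered reads in a library were left out.

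For each library the fraction was averaged over positions with equal weight, and the mean of both AID-/- libraries was subtracted for the excess. The test at single positions was edgeR's quasi-likelihood test (4.0.16, in R 4.3.3) on counts from all 10 libraries, offset by the logarithm of filtered reads, with a minimum of 10 substituted reads in 2 or more libraries, and separately for each substitution. One alternative was TMM scaling of the substituted reads, which took the place of the coverage offset. The others were no filter, DESeq2 1.42.0, limma 3.58.1 on log2 of the fraction (pseudocounts 1e-05 and 1e-06), the replicate number as a block, and subsets of libraries or positions. Other values used Python 3.11.15, numpy 2.4.6, scipy 1.17.1, pandas 2.3.3 and matplotlib 3.10.9. The fit was also run on simulated counts.

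Named positions were the 10 largest rises of transitions without overlap between UNG-/- and UNG+/+, the 10 highest excesses in UNG-/- and 5 in UNG+/+, up to 5 falls, up to 5 changes of each transversion, and the highest and lowest of each context in UNG-/-. The members, the contexts and these rules were chosen with earlier results of these data known. Deviations of transitions from group means in libraries with the same replicate number correlated at -0.00614, 0.262, 0.124 and -0.00689 across positions. The numbers were not taken to pair the libraries, although such a correlation cannot show a level that same-numbered libraries share. Calls with the number as a block are given below.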

Additional observations from a re-analysis of the deposited data

Results flagged for a closer look

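In groups of 4 libraries, 5 of the 80 groups of values reported had 1 library far from the other 3 by Dixon's test, where chance alone gives about 5%. Transitions at C481 were 5.30 per 10000 in UNG-/- replicate 4, against 9.30 to 10.1 in the other UNG-/- libraries. At G438 they were 0.700 in UNG-/- replicate 2, against 1.61 to 1.71 in the others, and at G381 they were 1.41 in UNG-/- replicate 2, against 0.570 to 0.617 in the others. The mean C:G to G:C frequency at GTC positions was 0.251 in UNG-/- replicate 1, against 0.379 to 0.403 in the other UNG-/- libraries, and 0.361 in UNG+/+ replicate 3, against 0.241 to 0.257 in the other UNG+/+ libraries.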

How the results depend on the processing

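Of 369 recomputed values, 296 kept their size but not always direction, 70 moved and 3 reversed. The reversals were transition calls under TMM scaling, which removes a shift shared by most C:G positions. It called 27 SYC positions between UNG-/- and UNG+/+ (25 lower), 45 between UNG-/- and AID-/- (44 lower) and 40 between UNG+/+ and AID-/- (all lower). Over all 236 C:G positions it called 33 higher and 38 lower, 86 higher and 77 lower, and 81 higher and 66 lower, in that order. Transition calls at CTC (19) became 2 higher under TMM. The 9 in the other contexts became 0 under TMM, 14 within replicate numbers 1 and 2 and 5 within 3 and 4. Within those replicate numbers, 202 of 233 and 185 of 235 of all C:G positions were higher. Without 1 library, SYC transition calls ran from 25 to 32 between UNG-/- and UNG+/+, with 18 to 20 at CTC and 7 to 12 in the other contexts. They ran from 26 to 33 between UNG-/- and AID-/- (18 to 19 at CTC, 8 to 14 elsewhere) and from 5 to 11 between UNG+/+ and AID-/- (5 to 11 at CTC, 0 to 1 elsewhere). The 3 C:G to G:C calls between UNG-/- and UNG+/+ (2 higher and 1 lower) became 8 under TMM, all higher. Over all 191 C:G positions TMM called 20 higher and 42 lower. The 3 became 1, a lower one, with DESeq2, limma at either pseudocount and the replicate block. The same held with only the groups compared and within replicate numbers 1 and 2. Without 1 library the 3 ran from 1 (lower) to 4 (1 higher and 3 lower). With replicate 3 as the only UNG-/- library the SYC median log2 fold change was 0.36, against 0.35 in the main fit. The 1 C:G to G:C call between UNG+/+ and AID-/-, a higher one, became 8 under TMM (1 higher and 7 lower). It became 5 with the replicate block (1 higher and 4 lower) and 3 within replicate numbers 3 and 4 (1 higher and 2 lower). It became 0 with only the groups compared, and 0 to 2 without 1 UNG+/+ library. Over all 191 C:G positions, TMM called 43 higher and 14 lower, and the block 44 higher and 15 lower. Within replicate numbers 3 and 4, 47 of 186 were higher and 3 lower. The 5 C:G to A:T calls became 0 under TMM, with limma at a pseudocount of 1e-05 and within replicate numbers 1 and 2. They became 1 with DESeq2 and with limma at 1e-06, 15 with the replicate block and 2 with only the groups compared. They became 3 within replicate numbers 3 and 4, and 0 to 22 without 1 library. With replicate 3 as the only UNG-/- library the SYC median log2 fold change was -0.17, against -0.45 in the main fit. Over all C:G positions, 94 of 231 were lower with the block, 47 of 228 within numbers 1 and 2 and 31 of 231 within 3 and 4. The 0 such calls against AID-/- became 40 in UNG-/- and 1 in UNG+/+ with the replicate block, and 30 and 10 within replicate numbers 1 and 2. Over all C:G positions, 122 and 11 of 231 were then lower with the block, and 1 and 15 higher. Within replicate numbers 1 and 2, 106 and 28 of 228 were lower, and 1 and 20 higher. Apart from TMM and these subsets the cause was not tested. With the replicate block, transition calls were 27 between the UNG genotypes, 32 between UNG-/- and AID-/- and 13 between UNG+/+ and AID-/-. Position by position, same-numbered libraries did not all deviate together, with correlations for C:G to A:T of -0.137, -0.236, 0.0666 and 0.162, so the block was read as a shared number. The mean C:G to A:T level did rank the replicate numbers alike in both UNG genotypes.

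As a median over positions, the transition frequency was 1.64 in UNG-/-, 0.913 in UNG+/+ and 0.676 in AID-/- libraries, and without CTC the mean was 1.19, 0.758 and 0.677 in the same order. Leaving out 1 library gave means of 2.29 to 2.59 in UNG-/-, 1.00 to 1.06 in UNG+/+ and 0.733 to 0.771 in AID-/- libraries. The C:G to G:C median in UNG+/+ was 0.207, and without 1 library the C:G to G:C means were 0.298 to 0.334, 0.296 to 0.322 and 0.367 to 0.419, and the C:G to A:T means 1.62 to 1.86, 2.02 to 2.92 and 2.55 to 2.81, in that order. The UNG-/- excess at 1 to 2 bp from a WRC cytosine was 0.552 of that at 3 bp or more, 0.651 with the same strand only, 0.711 for CTC alone and 0.907 for the others. With all substitutions, the WYC, SRC and WRC excess in UNG-/- was 5.90, 14.4 and 106.2 times that of SYC. By UNG-/- library these ran from 3.74 to 13.1, 8.13 to 35.9 and 58.6 to 265. The SYC excess was then only 0.671, as it includes a C:G to A:T part of -0.906. CTC excess was 6.59 times that of the other contexts in UNG-/-, and 6.34 to 7.32 times without 1 library. Depth limits the weakest members, such as G245, which rested on 3 substituted reads in UNG-/- replicates 1 and 4. Counting CTC apart or leaving it out was chosen after the data were seen.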

Other observations

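With all 3 substitutions added together, the UNG genotypes overlapped in every context. CTC had 6.56 ± 0.716 substitutions per 10000 in UNG-/- and 4.94 ± 1.55 in UNG+/+ libraries (mean ± SD, n = 4 each), beside 4.16 and 4.31 without AID. The other 3 contexts together had 3.13 ± 0.374 in UNG-/- and 3.21 ± 1.00 in UNG+/+ libraries, beside 3.46 and 3.65 without AID, with the UNG+/+ spread set by replicate 3 at 4.55.

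Across positions, UNG-/- and UNG+/+ transition frequencies ran in parallel, with a Spearman correlation of 0.848 over the 63 SYC positions, 0.579 over the 25 CTC and 0.83 over the 38 others. UNG-/- frequency correlated with that of AID-/- cells at -0.465 over the CTC positions and 0.575 over the others. These describe positions of the same libraries, which differ in depth and base composition.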
